A study of Homo sapiens with 6 samples.

Results

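RNA precipitated with GAPDH gave peaks at 105 regions of the human genome in the lists of all 3 media, out of 951 regions in all (11.0%, exact binomial 95% interval 9.12 to 13.2%). These regions were chosen by position alone. Peaks of the galactose, low glucose and normal glucose lists that overlapped by at least 1 nt were merged, and a merged region was kept where it held a peak of each list. Of the other regions, 149 held peaks of 2 lists and 697 held peaks of a single list. The overlap chose the regions, so that their presence in every list is not a result, and their starts, ends and widths are given as a description with no test. The 105 regions held 320 peaks with 161 distinct pairs of start and end.

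GAPDH (glyceraldehyde-3-phosphate dehydrogenase) is an enzyme of glycolysis that also binds RNA. In MOLM-13 cells, an established line of human acute myeloid leukaemia, proteins were crosslinked to RNA with UV light, GAPDH was precipitated with a polyclonal antibody, and its RNA was trimmed with RNase T1, an enzyme that cuts after G. The cells of the 3 groups, 2 samples each, had been kept before lysis in a medium based on galactose, on low glucose or on normal glucose, and the labels give no other difference between them. The authors joined both samples of a group into 1 list of peaks, which holds positions and gene names but no read numbers, scores or strands, so that depth and the spread between samples are unknown and no comparison of the media over samples could be made. The sample labels describe total RNA freed of rRNA and a stranded library, which the study's methods give for its RNA sequencing and not for CLIP. An input or a control antibody was not analysed here. Intervals in brackets are binomial (Clopper-Pearson, 95%) and stand for counting error over regions or peaks alone.

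Most of these regions lay on genes of structural RNA, the RNA that works as RNA and is not translated. Transfer RNAs (tRNAs) bring amino acids to the ribosome, whose own RNAs are the 18S, 5.8S and 28S rRNAs, cut from a 45S precursor, and the separate 5S rRNA. Small nuclear RNAs (snRNAs) build the spliceosome, small nucleolar and small Cajal body RNAs (snoRNAs, scaRNAs) guide the modification of other RNAs, 7SL is the RNA of the signal recognition particle and 7SK holds back the elongation factor P-TEFb. RNA polymerase III makes tRNA, 5S, U6, 7SL and 7SK. A tRNA is made as a longer precursor, which loses a leader and a trailer before the bases CCA are added to its 3' end.

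A peak of 101 nt is a single crosslink site with 50 nt added on each side, so 50 nt taken from each edge of a peak gave its first and last crosslink site. This reading was inferred from the widths, the narrowest peak of any list being 101 nt. The study's methods name an extension of up to 50 nt for single sites, so its use for wider, merged peaks is an assumption. The lists do not say whether positions count from 0 or 1, and every site given here would lie 1 nt further along the plus strand if they counted from 0 (the leftmost site of a peak only, if starts alone did). In 13 of 20 pairs of a narrow peak (103 nt or less) and a wide peak (over 130 nt) in the same region, both had a start or an end in common. With this reading, the commonest form at tRNA genes was a peak whose first site lay just before the first base of the tRNA and whose last site lay just past its last base. The following sequences run from the first to the last site of peaks with identical coordinates in all 3 lists, in hg38, on the strand of the tRNA gene, and the capitals mark the tRNA gene. They are the tRNA genes for glutamate, arginine, leucine, lysine, serine, aspartate and selenocysteine that come first in the genome with this form, and the lower case letters show how little lay outside the gene.
TRE-TTC4-1: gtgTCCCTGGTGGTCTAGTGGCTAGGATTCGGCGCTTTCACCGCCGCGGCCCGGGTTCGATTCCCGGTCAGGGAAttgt
TRR-TCT1-1: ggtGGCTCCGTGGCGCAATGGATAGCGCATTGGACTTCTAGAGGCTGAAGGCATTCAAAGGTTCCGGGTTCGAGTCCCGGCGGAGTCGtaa
TRL-CAG1-6: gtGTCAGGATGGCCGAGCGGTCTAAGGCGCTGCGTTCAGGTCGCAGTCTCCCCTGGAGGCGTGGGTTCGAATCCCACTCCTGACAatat
TRK-CTT2-2: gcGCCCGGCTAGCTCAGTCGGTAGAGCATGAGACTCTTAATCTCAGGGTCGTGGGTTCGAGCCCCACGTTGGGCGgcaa
TRS-GCT3-1: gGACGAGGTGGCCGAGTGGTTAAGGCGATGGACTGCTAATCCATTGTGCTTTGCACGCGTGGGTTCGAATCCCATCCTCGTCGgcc
TRD-GTC2-8: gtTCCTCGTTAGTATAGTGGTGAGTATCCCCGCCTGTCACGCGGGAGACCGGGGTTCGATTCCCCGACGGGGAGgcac
TRU-TCA1-1: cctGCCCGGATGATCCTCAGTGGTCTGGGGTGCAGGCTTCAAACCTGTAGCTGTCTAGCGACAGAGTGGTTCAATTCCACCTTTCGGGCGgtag
They lie at chr1:16535275-16535353 (minus strand, in an exon of the lncRNA LINC01783), chr1:93847570-93847660 (plus strand, in an exon of an lncRNA without a symbol), chr1:161530338-161530426 (minus strand, in an lncRNA intron), chr5:181207753-181207831 (plus strand, in an lncRNA intron), chr11:66348119-66348204 (plus strand, in an intron of the lncRNA B4GAT1-DT), chr12:96036019-96036096 (plus strand, in an intron of LTA4H) and chr19:45478597-45478690 (minus strand, in an intron of ERCC1). The sequence of TRR-TCT1-1 is longer than that of most tRNA genes because the gene includes an intron.

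At some of the other small RNAs the sites lay at an end too. In each of the following windows of 51 nt the middle base, the 26th, is the crosslink site (for the 5' end of RNU6-4P, the first of both sites), the site was the same in all 3 lists, and the capitals mark the RNA gene as annotated.
RN7SK, 5' end: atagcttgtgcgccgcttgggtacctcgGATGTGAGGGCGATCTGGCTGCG
RN7SL2, 5' end: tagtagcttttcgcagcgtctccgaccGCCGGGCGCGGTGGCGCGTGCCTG
RNU6-4P, 5' end: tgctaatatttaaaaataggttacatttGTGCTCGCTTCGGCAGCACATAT
RNU6-4P, 3' end: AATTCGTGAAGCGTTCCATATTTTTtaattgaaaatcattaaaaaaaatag
RNU6-2, 3' end: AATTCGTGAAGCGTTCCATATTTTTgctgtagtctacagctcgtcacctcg
RNVU1-31, 3' end: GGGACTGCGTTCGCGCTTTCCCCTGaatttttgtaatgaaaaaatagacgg
SNORA64, 3' end: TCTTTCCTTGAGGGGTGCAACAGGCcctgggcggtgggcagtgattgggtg
These windows lie at chr6:52995593-52995643 (plus strand), chr14:49862826-49862876 (minus), chr3:181231709-181231759 (plus), chr3:181231819-181231869 (plus), chr19:1021604-1021654 (plus), chr1:145465591-145465641 (minus) and chr16:1962947-1962997 (minus).

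By class, 42 of the 105 regions overlapped a nuclear tRNA gene (40%, interval 30.6 to 50%), 36 lay on other small RNA or rRNA genes, 6 on the 45S units of the ribosomal DNA away from 5.8S genes, 18 in protein coding genes and 3 in lncRNA genes. Together the first 3 classes made up 84 regions (80%, interval 71.1 to 87.2%). A region counted where it overlapped such a gene or was annotated to it. With the middle of the shared part required to lie in the RNA gene, 63 regions remained, and 32 for tRNA genes. Among the 846 regions with peaks of 1 or 2 lists, structural RNA made up 27.1%, and nuclear tRNA genes 5.32%. The share of structural RNA was 24.4% of regions in 1 list (interval 21.2 to 27.8%). It was 39.6% in 2 lists (31.7 to 47.9%), 80% in 3 lists and 32.9% over all 951 regions. Several regions can belong to copies of the same RNA, so regions are not independent and the intervals were not compared. These shares are a description of the lists, and the part that abundance of an RNA or the read depth of a list had in them was not tested.

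The coordinates agreed to the base in most regions. In 67 of the 105 regions (63.8%, interval 53.9 to 73%) the start and the end were the same in the 3 lists, in 21 they were the same in 2 lists, and in 17 they differed in each list. For comparison, 49 of the 149 regions with peaks of 2 lists had identical coordinates (32.9%, interval 25.4 to 41%). The list that stood apart in the 21 regions was normal glucose in 10, low glucose in 6 and galactose in 5. Taken in pairs, galactose and low glucose held the same peaks in 77 regions, galactose and normal glucose in 73, and low and normal glucose in 72. Identical coordinates were found at 32 of 42 tRNA regions, 24 of 36 small RNA and rRNA regions, 2 of 6 regions of the 45S units, 7 of 18 protein coding regions and 2 of 3 lncRNA regions.

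**Figure D1:**
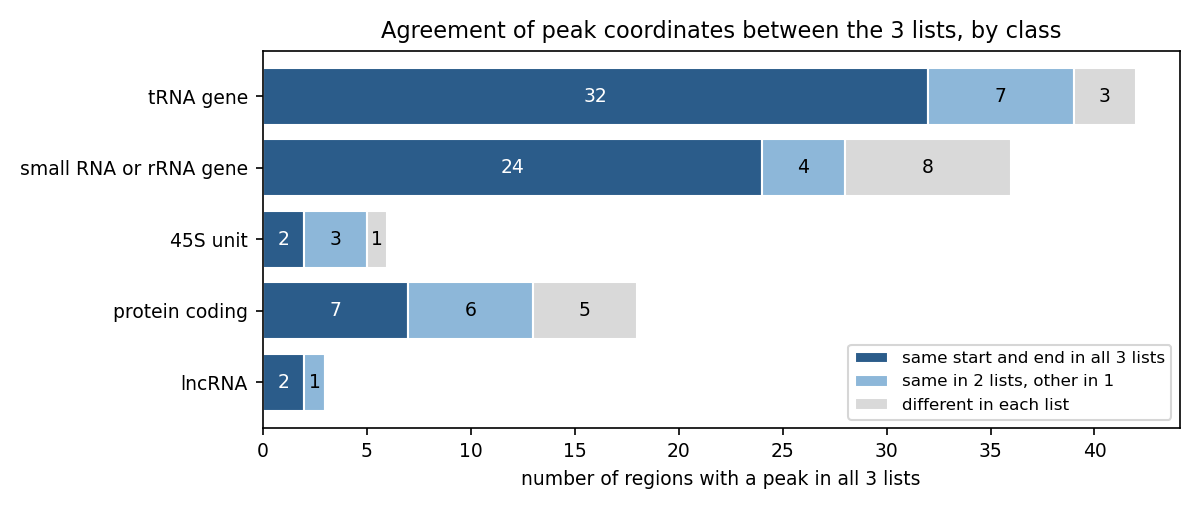
Number of regions with a peak in all 3 lists (horizontal axis) for each class of gene (rows), split by whether start and end were the same in all 3 lists (dark blue), in 2 of them (light blue) or in none (grey). The dark blue segment holds 32 of 42 tRNA regions and 7 of 18 protein coding regions.

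Where an edge moved, it was more often the start than the end. Of the 101 regions with exactly 1 peak of each list, 72 had a common start and 83 a common end. In 16 of them the end was common and the start was not, in 5 the start was common and the end was not, and in 13 both differed. Starts and ends are those of the plus strand of the genome. In the 34 such regions without identical coordinates the largest difference at an edge was 5 nt or less in 13 and over 5 nt in 21, with a median of 31.5 nt and a highest value of 138 nt.

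Width followed the same pattern. The covered length differed between the lists in 35 regions, and in 3 others the peaks were shifted at equal length. One list was wider than both others in 28 regions, which was galactose in 12, normal glucose in 9 and low glucose in 7. With a margin of more than 5 nt these numbers were 5, 7 and 5. The peaks of the 105 regions had a median width of 103 nt for galactose (101 to 242 nt), 103 nt for low glucose (101 to 224 nt) and 102 nt for normal glucose (101 to 266 nt). Single-site peaks were 34% of them in galactose (interval 25 to 43.8%), 34.9% in low glucose (25.9 to 44.8%) and 42.6% with normal glucose (33.1 to 52.5%). Among the peaks outside these regions the shares were 68.4% (62 to 74.3%), 50.5% (45.4 to 55.7%) and 71.1% (66.3 to 75.5%), above the share inside in every list. Wider peaks overlap others more readily, so that width is not independent of the rule.

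The part of a region that all 3 lists covered, as a share of what any list covered, had a median of 100%. It was 90% or more in 80 regions, between 50 and 90% in 13 and under 50% in 12. Over the 38 regions without identical peaks its median was 63%. The 12 regions under 50% were 8 of small RNA genes and 4 of protein coding genes, and no tRNA region fell under 50%. TKT, which encodes a transketolase, shared no base in all 3 lists, since the low glucose peak met the galactose peak over 11 nt and did not reach the normal glucose peak. The next smallest shared parts were those of SCARNA2 (9.19%), RNU4ATAC (11.6%), RNU6-9 (16.8%) and SNORD94 (20.1%).

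**Figure D2:**
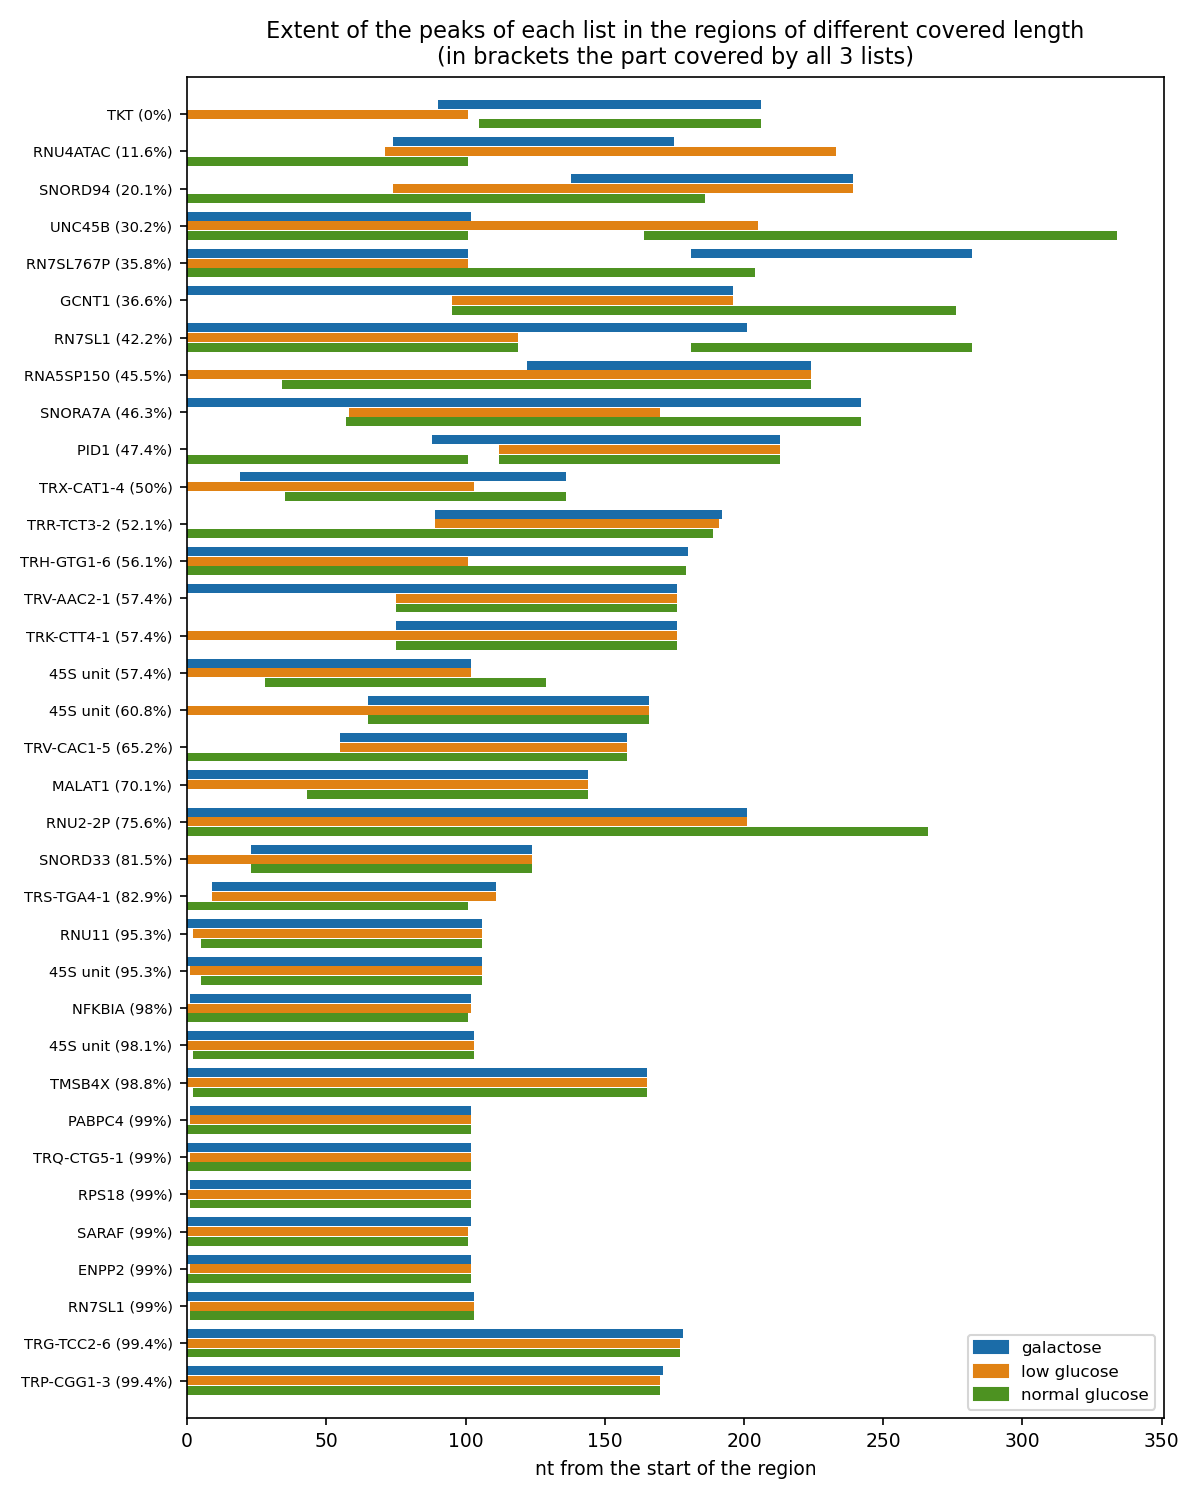
Stretch covered by the peaks of galactose (blue), low glucose (orange) and normal glucose (green) in the 35 regions whose covered length differed between the lists, in nt from the start of the region on the plus strand (horizontal axis), ordered by the share covered by all 3 lists (in brackets). The share runs from 0% at TKT to 99.4% at the tRNA gene TRP-CGG1-3, and from RNU11 (95.3%) downwards the lists differ by a few nt only.

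With at least 25 nt of overlap in place of 1 nt, 103 regions held a peak of each list. The smallest overlaps that held a region together were 1 nt at UNC45B, 11 nt at TKT, 13 nt at PID1 and 20 nt at SCARNA2. Just outside, 6 pairs of neighbouring regions within 50 nt of each other would have formed a region of 3 lists, the closest being 22 nt apart in EDA and 24 nt apart in an lncRNA without a symbol, followed by RPL12 at 32 nt and RPS16 at 39 nt.

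The gene names of the lists agreed fully. In all 105 regions the peaks of the 3 lists were annotated to the same genes. There were 117 gene identifiers, of which 87 had a symbol, and 33 regions had more than 1 gene. By GENCODE type these were 46 protein coding genes, 37 lncRNA genes, 11 snRNA genes, 6 snoRNA genes, 6 genes of other RNA (7SL and 7SK among them), 4 rRNA genes, 4 rRNA pseudogenes, 1 scaRNA gene and 1 miRNA gene, and 1 identifier had no match. Over the whole lists 149 of 947 identifiers occurred in all 3 lists, and 32 of them did so without any region in common, the peaks of different lists lying at different places of the gene.

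The names did not show the tRNA genes. None of the 42 tRNA regions was annotated to a tRNA gene in the deposited lists (0 of 42), where 17 carried the name of a protein coding gene, 22 of lncRNA genes only and 3 an identifier without a match in GENCODE. The tRNA gene lay wholly within an annotated gene in 35 of 42 regions. An annotated gene ran on the strand of the tRNA in 21, and since the lists give no strand, RNA of the tRNA and RNA of the gene around it cannot be told apart by name. Examples were KCTD2 (with TRR-CCT1-1 and TRR-CCT2-1 in introns), SHF (TRH-GTG1-7 and TRH-GTG1-8), LTA4H (TRD-GTC2-8), ERCC1 (TRU-TCA1-1), RAB11A (TRQ-CTG1-4), MORF4L1 (TRK-CTT1-2) and the lncRNA LINC00324 (TRD-GTC2-11 and TRP-CGG1-3).

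Several regions on the same gene were found for 16 genes. ENSG00000280441, an lncRNA model drawn across the 45S units, had 7. SOX2-OT and some identifiers without a symbol had 3 each, those of SOX2-OT lying over RNU6-4P (both ends) and RNA5SP150. RPL13A, RPS29, KCTD2, SHF, LINC00324, RNU11, RN7SL1, RN7SL3 and RNU6-4P were among those with 2, and the regions of RPS29 were the same stretches as those of RN7SL1.

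At tRNA genes most peaks spanned the whole gene. A peak had sites within 5 nt of both ends of the gene in 27 of 42 regions for galactose, 25 for low glucose and 26 for normal glucose, and 24 regions did so in all 3 lists (14 with a limit of 3 nt and 26 with 10 nt). In these peaks the first site lay 2 nt before the first base of the tRNA at the median of each list, and the last site 3 nt past the last base. Their median width was 178 nt in galactose (171 to 194 nt, n = 27), 178 nt in low glucose (176 to 194 nt, n = 25) and 178.5 nt in normal glucose (176 to 194 nt, n = 26). The widest peak, of 194 nt, was the same in each list and covered TRU-TCA1-1, the tRNA of selenocysteine, whose gene of 87 nt is the longest of the 42. The middle of the stretch shared by the 3 lists lay 36.5 nt from the first base of the gene at the median (-2 to 86.5 nt).

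A site at a single end was rarer. Peaks at the 3' end only numbered 7 of 42 in each list, and 5 regions had this form in all 3, which were those of TRA-AGC8-1 (sites at bases 75 and 76 of a gene of 73 nt), TRD-GTC2-7, TRH-GTG1-7, TRP-AGG1-1 and TRG-TCC1-1. TRE-TTC4-2 alone had a site at the 5' end only in all lists, 2 nt before its first base, while TRE-TTC4-1, a gene of identical sequence, had sites at both ends. TRH-GTG1-8 and TRQ-CTG5-1 held sites inside the gene, with base 16 hit in every list at both. TRP-TGG3-5 was covered from base 36 to 3 nt past its last base in each list, and TRE-CTC1-1 from 1 nt before its first base to 7 nt past its last.

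Over all their peaks, both ends were hit in 78 of the 126 peaks of these tRNA regions and in 6 of the 59 tRNA gene peaks of regions with 1 or 2 lists. The 3' end alone was hit in 21 of 126 and 33 of 59. Since wide peaks meet other peaks more readily, this contrast is bound to the rule and was not tested.

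**Figure D3:**
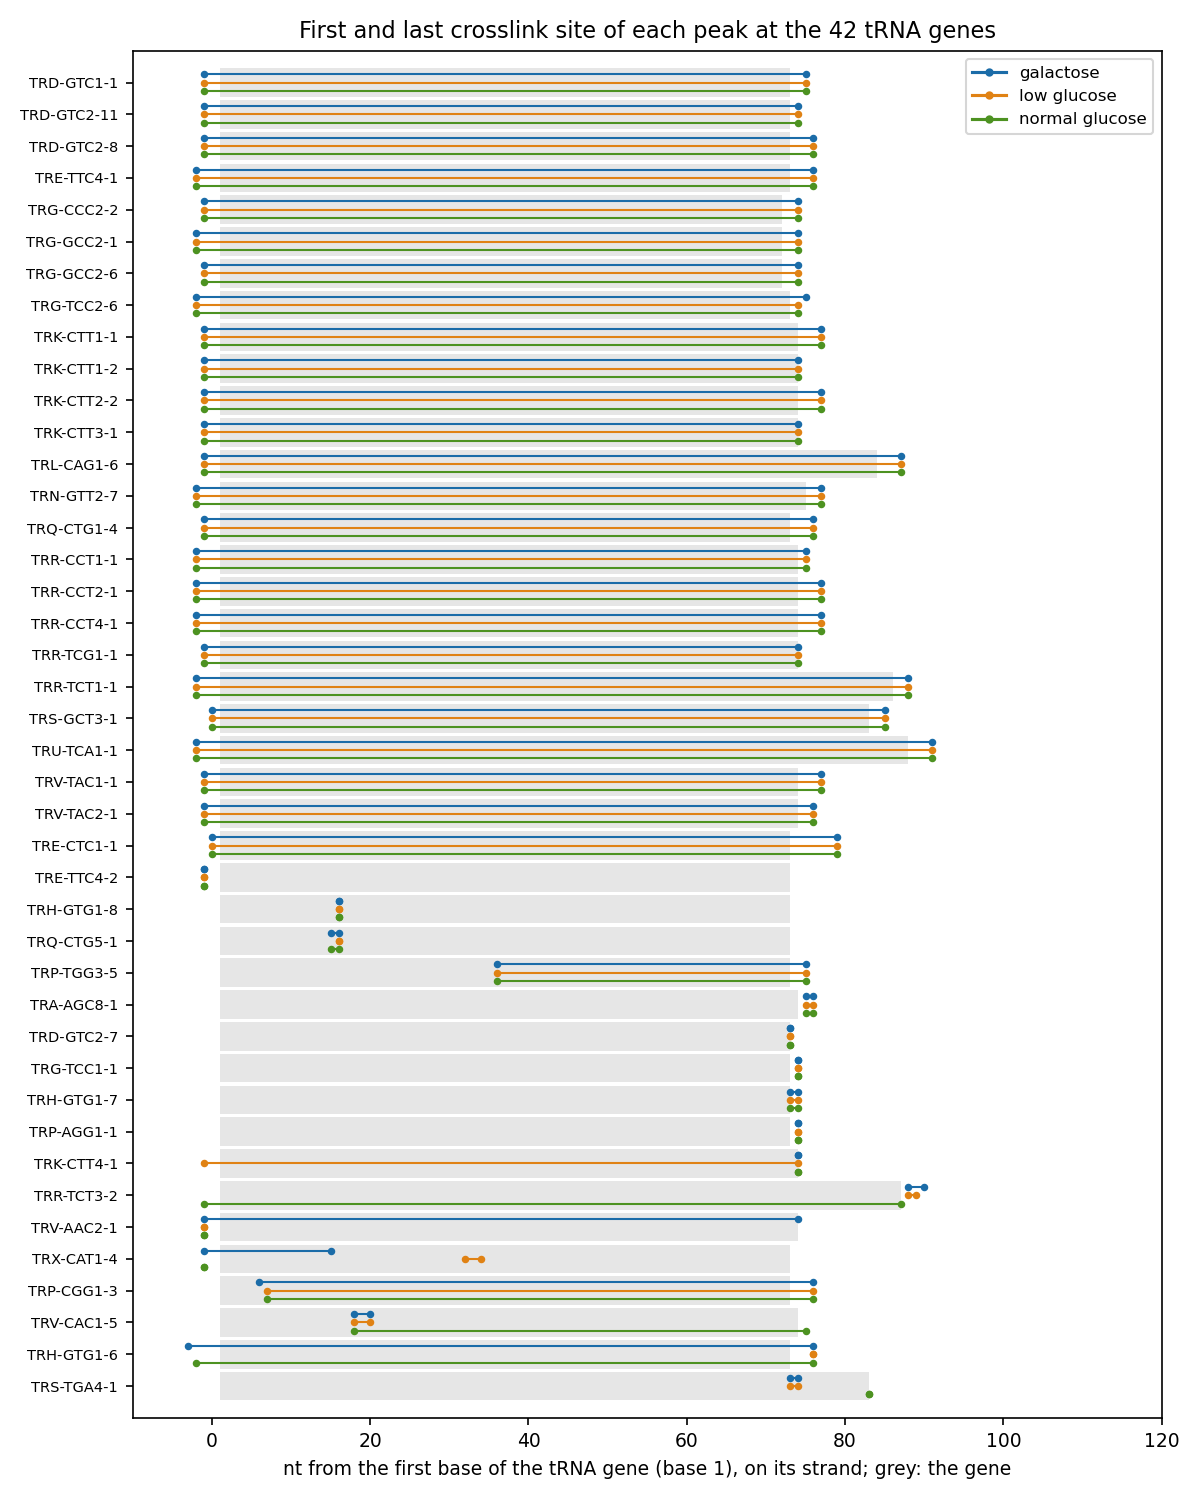
First and last crosslink site (points, joined by a line) of each peak at the 42 tRNA genes, in nt from the first base of the tRNA (horizontal axis, on its strand), for galactose (blue), low glucose (orange) and normal glucose (green), with the gene in grey. In 24 genes the lines of all 3 lists run from 1 to 3 nt before the gene to 1 to 4 nt past it, and the lower 8 genes are those where the lists differed in form.

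The form was the same in the 3 lists at 34 of the 42 tRNA genes, and the other 8 had no common direction. At TRV-AAC2-1, for valine, the galactose peak (176 nt) reached both ends, and the low and normal glucose peaks (101 nt each) held the 5' site alone. At TRK-CTT4-1, for lysine, low glucose had both ends (176 nt) and the other lists the 3' site alone (101 nt each). At TRR-TCT3-2, for arginine, normal glucose had both ends (189 nt), against 103 nt in galactose and 102 nt in low glucose at the 3' end. At TRH-GTG1-6, for histidine, low glucose lacked the 5' site (101 nt against 180 nt in galactose and 179 nt in normal glucose). Each medium was thus the one with an added end at one of these genes.

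The initiator methionine tRNA, which starts translation, had the least shared part of the tRNA genes (50%). At its gene TRX-CAT1-4 the galactose sites ran from 2 nt before the first base to base 15, the low glucose sites lay at bases 32 to 34, and the normal glucose site lay 2 nt before the first base. At TRV-CAC1-5 the sites ran from base 18 to 20 in galactose and low glucose and from base 18 to 2 nt past the last base in normal glucose. At TRS-TGA4-1 normal glucose had its site 1 nt past the last base, and both other lists had their last site 8 nt within the gene. TRP-CGG1-3 differed by 1 nt at the 5' side, which took the galactose peak to the 5 nt limit.

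The tRNA genes served 15 amino acids and 25 anticodons. Arginine had the most, 6 of its 26 nuclear tRNA genes, followed by lysine (5 of 27), glycine (5 of 30), aspartate (4 of 13) and valine (4 of 28). Glutamate (3 of 15), histidine (3 of 9), proline (3 of 20), glutamine (2 of 19), serine (2 of 26), selenocysteine (1 of 2), initiator methionine (1 of 8), asparagine (1 of 22), leucine (1 of 32) and alanine (1 of 33) had fewer. No order is drawn from these small numbers. Repeats bear on them, since reads from genes of identical sequence can only be told apart by the bases around the gene. The 42 genes had 35 distinct sequences, 17 of them found in no other nuclear tRNA gene. These sequences occurred in 115 genes, of which 46 had a peak in any list and 42 had one in all 3. Those 42 are the genes that the sequences were taken from, so this number was set by the choice.

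Among the 36 regions of small RNA and rRNA genes, a site lay within 5 nt of the 5' end of the RNA in all 3 lists in 11, and within 5 nt of the 3' end in all 3 in 11. In 10 regions no list had a site near an end. There were 12 sites at the 5' end for galactose, 11 for low glucose and 15 for normal glucose, and those at the 3' end 13, 14 and 12.

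U6, the catalytic snRNA of the spliceosome, had 4 regions, 3 of them with identical coordinates. RNU6-4P, named as a pseudogene, was hit at both ends in separate peaks, 2 to 3 nt before its first base and 1 nt past its last base, in every list. RNU6-2 was hit 1 nt past its last base in each list. RNU6-9 was the exception, with base 40 hit in galactose and low glucose (peaks of 101 nt) and a site 5 nt past its last base in normal glucose (101 nt). The windows printed for RNU6-4P and RNU6-2 share the last bases of U6 and differ in the bases that follow.

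U1, which recognises the 5' splice site, had 3 regions, all identical in the 3 lists. RNVU1-31 was hit 1 nt past its last base, RNVU1-7 at bases 152 and 153 of 164, and RNU1-88P from 2 nt before its first base to base 69. U2, which binds the branch point, had 2. RNU2-2P was covered from base 64 to base 164 in galactose and low glucose (201 nt each) and from 2 nt before its first base to base 164 in normal glucose (266 nt, the widest peak among the regions). The other, ENSG00000274452, was hit at base 189 of 191 in all lists. Of the minor spliceosome, RNU11 had a 5' site region that varied by a few nt (106, 104 and 101 nt for galactose, low glucose and normal glucose) and a site at base 118 in each list. RNU4ATAC varied most. Base 73 was hit in galactose (101 nt), and the stretch from base 70 to 4 nt past the last base was covered in low glucose (162 nt). In normal glucose its site lay 2 nt before the first base (101 nt). U4 and U5 of the major spliceosome had no region in all 3 lists.

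7SL had 6 regions, 3 of them identical. RN7SL1, RN7SL2 and RN7SL767P, a 7SL-like copy, were hit 2 nt before their first base in every list. At RN7SL1 the peak at the 5' end measured 119 nt in low and normal glucose and 201 nt in galactose, and in its other region sites lay up to 3 nt past the last base in each list. Base 180 was hit in RN7SL3 in all lists, in RN7SL1 in normal glucose and in RN7SL767P in galactose. The same base in different copies may be reads of 1 RNA placed on different copies, which positions cannot tell apart. 7SK was hit at a single site 3 nt before the first base of RN7SK in each list, and RN7SKP9, a copy in UBAC2, at base 219.

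5S rRNA had 5 regions, 4 of them identical. RNA5S9 was hit at bases 88 to 90. RNA5SP149, RNA5SP202 and RNA5SP370, annotated as 5S pseudogenes, were covered from 2 to 3 nt before the first base to bases 88 to 90 in every list, so that these bases recurred in 4 of the 5 copies. The sites of RNA5SP150 began 3 nt before the first base in each list. They ended before the first base in galactose (102 nt), 2 nt past the last base in low glucose (224 nt) and at base 87 in normal glucose (190 nt). 5.8S rRNA had 3 regions, all identical. They held bases 155 to 157 at the 3' end of RNA5-8SN1 and base 96 of RNA5-8SN2 (both numbered on the RefSeq 5.8S of 157 nt). The pseudogene RNA5-8SP6 was covered from base 62 to 3 nt past its last base.

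The guide RNAs had 7 regions. Of the box C/D snoRNAs, which guide methylation, SNORD22 (in the host gene SNHG1) was covered from base 108 to 1 nt past its last base in each list, and SNORD32A (in RPL13A) was hit at bases 80 and 81 of 84. SNORD94, in PTCD3, was hit 1 nt past its last base in galactose (101 nt), from base 74 to that point in low glucose (165 nt), and from 1 nt before its first base to base 85 in normal glucose (186 nt). Of the box H/ACA snoRNAs, which guide pseudouridylation, SNORA64 (in RPS2) was hit 1 nt past its last base in every list. SNORA7A, in RPL32, was covered from end to end in galactose (242 nt), at bases 71 to 82 in low glucose (112 nt) and from 2 nt before its first base to base 83 in normal glucose (185 nt). SCARNA2 was hit at base 257 (galactose), 176 (low glucose) and 260 (normal glucose), with peaks of 101 nt each.

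**Figure D4:**
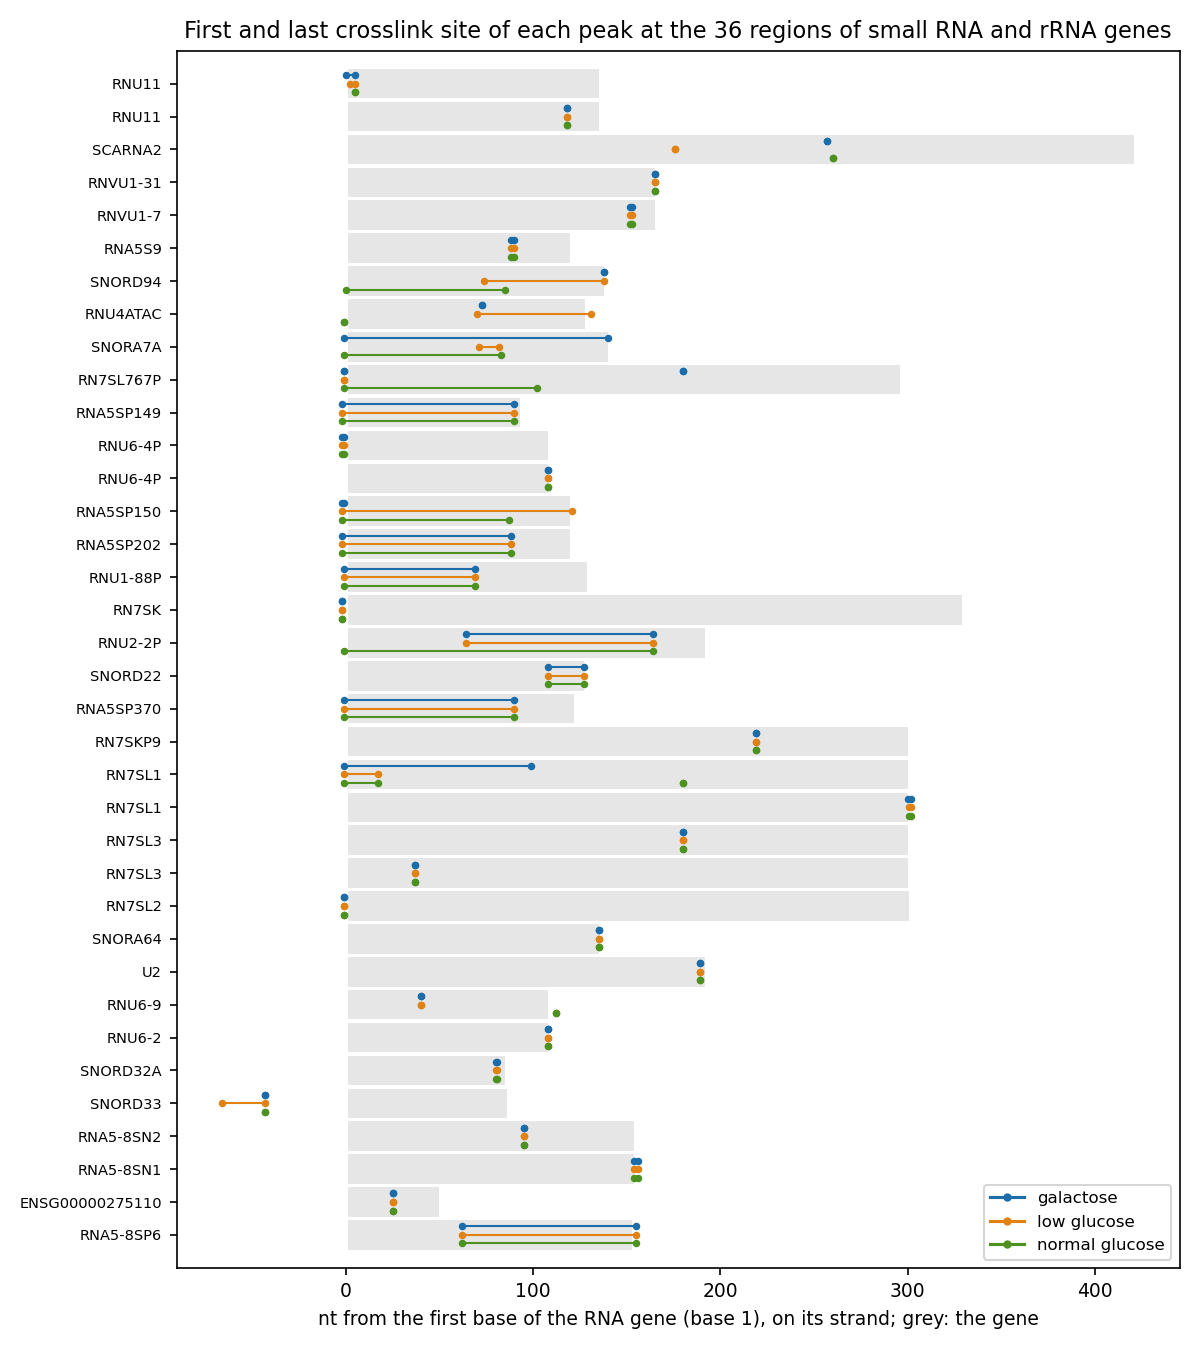
First and last crosslink site (points, joined by a line) of each peak at the 36 regions of small RNA and rRNA genes, in nt from the first base of the RNA gene (horizontal axis, on its strand), for galactose (blue), low glucose (orange) and normal glucose (green), with the gene in grey. Points of all 3 lists stack at an end of the gene for RN7SK, RN7SL2, RNU6-2 and SNORA64. They spread within the gene for SCARNA2, and from before the first base to past the last for RNU4ATAC.

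In the 45S units on chromosome 21, 6 regions lay away from the 5.8S genes, and the sites of each fell within the 18S or 28S rRNA. In 18S rRNA, the RNA of the small ribosomal subunit, base 1246 was hit in every list, as a single site in galactose and normal glucose and from base 1181 on in low glucose. The second 18S region held bases 1822 and 1823 in galactose and low glucose and base 1850 in normal glucose. In 28S rRNA, of the large subunit, base 1483 was common to the lists (from base 1481 in galactose and low glucose), as was base 2897 (from base 2892 in galactose and 2893 in low glucose). The stretch from 4816 to 4905 was identical in all lists, as were bases 4893 and 4894 of the 28S copy RNA28SN3. All 6 of these regions had a peak in which more than 50% of 30-mers recur in the genome.

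Of the 18 protein coding regions away from structural RNA genes, 12 lay in introns, and 7 of these 12 resembled rRNA. A search of the 105 regions against 1058 human structural RNA sequences with blastn placed them on the 45S unit with an identity of 83% to 100%. The share among intronic regions with peaks of 1 or 2 lists was 8.09% (11 of 136). The match ran on the strand of the gene in 6 of the 7 genes. HFM1, a meiotic helicase gene, held 143 nt with 99.3% identity to 28S bases 4160 to 4302, and ANKRD30BL held 127 nt with 95.3% identity to 18S bases 571 to 697. PID1, which encodes a phosphotyrosine interaction domain protein, held 107 nt with 96.3% identity to 28S, and PDE3A, a phosphodiesterase, held 49 nt with 100% identity to 18S bases 1278 to 1326. Each sequence is set over its 45S match, with the bases that differ in capitals (1 of 143 in HFM1, 6 of 127 in ANKRD30BL, 4 of 107 in PID1 and 0 of 49 in PDE3A, whose match is therefore printed once).
HFM1: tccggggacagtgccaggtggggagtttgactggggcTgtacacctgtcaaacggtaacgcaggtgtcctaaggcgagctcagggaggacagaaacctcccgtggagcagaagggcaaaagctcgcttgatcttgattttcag
45S: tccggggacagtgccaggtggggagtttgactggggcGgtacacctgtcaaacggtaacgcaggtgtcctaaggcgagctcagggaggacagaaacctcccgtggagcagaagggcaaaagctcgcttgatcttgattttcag
ANKRD30BL: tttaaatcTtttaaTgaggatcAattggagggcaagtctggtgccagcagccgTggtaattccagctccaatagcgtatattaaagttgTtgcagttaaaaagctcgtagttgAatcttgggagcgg
45S: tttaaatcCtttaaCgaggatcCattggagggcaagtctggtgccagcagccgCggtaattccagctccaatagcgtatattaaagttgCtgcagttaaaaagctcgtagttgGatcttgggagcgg
PID1: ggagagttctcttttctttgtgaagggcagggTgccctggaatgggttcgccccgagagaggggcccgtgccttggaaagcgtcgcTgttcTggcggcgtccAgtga
45S: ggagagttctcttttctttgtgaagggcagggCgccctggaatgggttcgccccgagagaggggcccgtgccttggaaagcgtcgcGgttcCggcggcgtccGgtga
PDE3A and 45S: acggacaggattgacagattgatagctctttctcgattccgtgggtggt
In hg38 they lie at chr1:91387449-91387591 (minus strand), chr2:132255498-132255624 (minus), chr2:229180915-229181021 (minus) and chr12:20551424-20551472 (plus), and the matches at chr21:8445305-8445447, chr21:8437446-8437572, chr21:8443764-8443870 and chr21:8438153-8438201 (plus).

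In 28S numbering, the HFM1 sites were 4196 to 4252 in all 3 lists. In 18S numbering, those of ANKRD30BL were 621 to 647, and that of PDE3A lay 2 nt before the first matching base. PID1 was hit at 28S base 2669 in every list, with the peak reaching base 2693 in galactose and a second site beyond the match in normal glucose. UNC45B, a myosin chaperone gene, had the widest region (334 nt). It held 163 nt with 96.9% identity to the first bases of 28S, on the strand opposite to the gene, and base 135 was hit in each list. GCNT1, a glycosyltransferase gene, matched 28S over 312 nt with 83% identity, with peaks of 196, 101 and 181 nt in galactose, low and normal glucose, and SLCO5A1, a transporter gene, over 131 nt with 90.8% identity and peaks of 148 nt in each list. The match of GCNT1 (28S bases 4728 to 5039) includes the stretch from 4816 to 4905 hit in the 45S unit itself, and the matches of the other genes hold none of the bases hit there. Within the matches shown, rRNA and intron differ at the bases in capitals only, and the files hold no reads, so which of them gave the peaks was not tested.

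**Figure D5:**
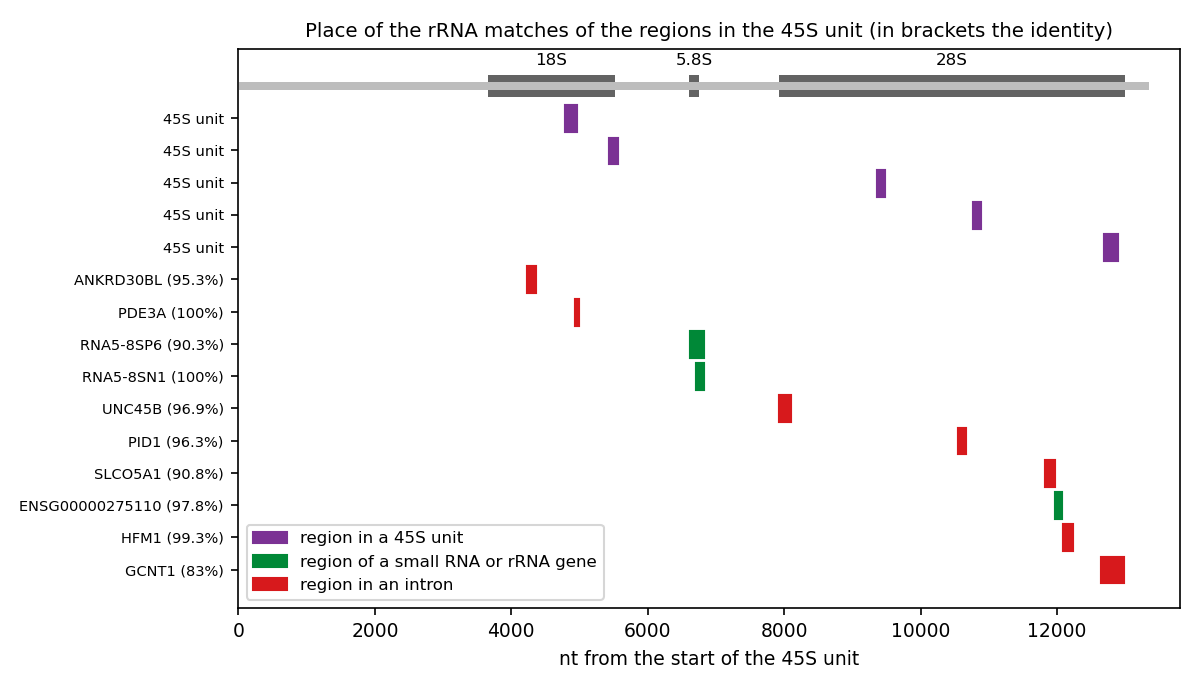
Place on the 45S unit (horizontal axis, nt from the start of the unit RNA45SN1, with 18S, 5.8S and 28S in dark grey) of the 5 regions within that unit (purple), of 3 small RNA gene regions that match it (green) and of the 7 intronic regions that match it (red), with the identity of the match in brackets. The intronic matches spread over 18S and 28S, from ANKRD30BL (95.3%) to GCNT1 (83%), and all lie inside the mature rRNAs.

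Away from rRNA, the other intronic genes included INSIG2 (a regulator of sterol synthesis), C3orf85, GALNTL6 (a glycosyltransferase-like gene) and ENPP2 (autotaxin). INSIG2 (102 nt), C3orf85 (101 nt) and GALNTL6 (101 nt) had the same peak in every list and no match to a structural RNA. ENPP2 differed by 1 nt in low glucose and held 49 nt with 85.7% identity to the first bases of 7SL. An intronic region of the lncRNA ENSG00000275016 held 47 nt with 97.9% identity to a lysine tRNA, and the region of ENSG00000275110, annotated as a miRNA gene, held 90 nt with 97.8% identity to 28S. Both were identical in the 3 lists.

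There were 6 protein coding regions outside introns and away from structural RNA genes. In 5 of them the sites of at least 1 list, or the stretch between, came within 10 nt of an annotated transcript's first base. Among the 399 such regions with peaks of 1 or 2 lists, the share was 18.3%. In regions of 2 lists 26 were near a start and 30 were not, and in regions of 1 list 47 were near and 296 were not. A region with peaks of more lists offers more sites for this count, so the shares were not compared. Regions outside introns include those just before a gene, as at PABPC4. PABPC4, a cytoplasmic poly(A)-binding protein, was hit 2 nt before its first base in every list (101 nt in galactose and low glucose, 102 nt in normal glucose). RPS18, a protein of the small ribosomal subunit, was hit at its first base in every list, with 1 nt before it added in low glucose. The lists give no strand, and the region of RPS18 was also annotated to VPS52 on the opposite strand. TMSB4X, the actin-binding thymosin beta-4, was covered from 3 nt before its first base in galactose and low glucose (165 nt each) and from 1 nt before it in normal glucose (163 nt), with the last site 61 nt downstream of the first base in each list. SARAF, a regulator of calcium entry, was hit in its 5'UTR, 10 nt before the nearest of its 13 annotated starts, in every list. From the first base of the gene, the first site lay 226 nt downstream in galactose and 227 nt in low and normal glucose. The region of SARAF also lies in an exon of an lncRNA without a symbol on the opposite strand.

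TKT had sites from 2 nt before an annotated start to 13 nt past it in galactose (116 nt), at 2 nt before it in normal glucose (101 nt), and in the coding sequence in low glucose (101 nt), 55 nt past the annotated start nearest to that site. NFKBIA, the inhibitor of NF-kappa-B, was the gene without a site near a start. It was hit in its coding sequence 56 nt past an annotated start in galactose, 56 and 57 nt in low glucose and 57 nt in normal glucose, so that its 3 lists differed by 1 nt. Of the lncRNAs, MALAT1, a nuclear RNA of speckles, was hit in an exon, in a stretch that is also exon of TALAM1 on the opposite strand. The peak of MALAT1 was the same in galactose and low glucose (144 nt) and measured 101 nt in normal glucose (70.1% shared).

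Of 5 transcripts among those that the study followed up (GAPDH, RPL13A, PKM, TNF and MYC), RPL13A had regions in all 3 lists. It encodes a protein of the large ribosomal subunit and hosts several snoRNAs. One region lay over SNORD32A, as given, in a stretch that is also 3'UTR of an RPL13A transcript. The other was annotated to SNORD33, but its sites fell 44 nt before that snoRNA, within RPL13A coding sequence, in galactose and normal glucose (101 nt each), and 44 to 67 nt before it in low glucose (124 nt). With a peak anywhere in the gene, 1 of the 5 transcripts was in the galactose list and 3 each in the low and normal glucose lists.

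Gene lists were set beside the regions by name. Over the whole lists, 117 of the 947 gene identifiers with a peak had a region in all 3 lists (12.4%). Of 36 RNA polymerase III genes other than tRNA genes, 8 had a peak in galactose, 8 in low glucose and 11 with normal glucose, and 7 of the 12 in any list had a region in all 3 lists (RN7SK, RN7SL1, RN7SL2, RN7SL3, RNA5S9, RNU6-2 and RNU6-9). Of 43 spliceosomal RNA genes of RNA polymerase II, 6, 10 and 16 had a peak, and 5 of the 17 in any list had such a region (RNU11, RNU2-2P, RNU4ATAC, RNVU1-31 and RNVU1-7). Of 89 ribosomal protein genes, 27, 34 and 35 had a peak and 16 had one in every list. Of the 54 in any list, 5 had a region in common (RPL13A, RPL32, RPS18, RPS2 and RPS29), close to the share over all identifiers, and 4 of these through a snoRNA or 7SL gene within them. Of 90 translation factor genes, 4, 7 and 7 had a peak, and 1 of the 12 in any list had a common region (PABPC4). Of 25 genes of glycolysis and the pentose phosphate pathway, 1, 3 and 8 had a peak, and 1 of the 8 in any list had a common region (TKT). Of 13 myeloid marker genes, each list held a peak at 1, none was in all 3 lists and none had a common region. Since the lists hold no levels the cell type could not be checked further.

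A peak in which over 50% of the 30-mers recur elsewhere in the genome was found in 25 of the 105 regions (23.8%, interval 16 to 33.1%) and in 158 of the 846 others (18.7%, 16.1 to 21.5%). By class these were 6 of the tRNA regions, 11 of the small RNA and rRNA regions, all 6 of the 45S regions and 2 of the protein coding regions. A region without any recurrent 30-mer was less common among the 105 (14, 13.3%, interval 7.49 to 21.4%) than among the others (392, 46.3%, interval 42.9 to 49.8%). The highest value over the peaks of a region was used, and the 105 regions hold more peaks each by the rule. Structural RNA also made up 80% of them and 27.1% of the others, so these contrasts were not tested.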

How the data were processed

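RNA crosslinked to GAPDH was sequenced in 6 samples of MOLM-13 cells, 2 for each medium. The authors removed adapters with cutadapt and aligned reads to hg38 with STAR (versions are not given in the sources used here), called crosslink sites with PureCLIP and joined both samples of a medium. The deposited lists hold chromosome, start, end, gene identifier and symbol, and no other unit of measurement; the peak threshold and the joining rule decide what could appear in them. Depth is unknown, and precision is limited by the number of regions.

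Distinct peaks were read as 1-based with both ends included, which the lists do not state, and merged at 1 nt of overlap (Python 3.11.15). Regions were assigned in the order nuclear tRNA gene, small RNA or rRNA gene, 45S unit, protein coding, lncRNA and other, with GENCODE release 44, the RefSeq table of GRCh38.p14 and the hg38 sequence. A tRNA gene's strand came from its sequence (413 of 443 genes). Likeness to structural RNA was searched with blastn 2.17.0 (its blastn task at default word size, largest e-value 1e-5), and intervals came from scipy 1.17.1. The merging was tested on simulated lists, in which all planted regions were recovered. The genes named were each gene with a region outside introns and away from structural RNA, and up to 6 members of each RNA class. Also named were the regions with the smallest shared part, the widest regions and genes with several regions. Up to 12 intronic genes and 5 transcripts among those the study followed up were added. No test was run, since each medium has 1 joined list. The members, the gene lists and the comparisons were chosen with earlier results of these data known. Alternatives were other overlaps, tolerances, class rules and removal of recurrent sequence. One intronic region is not reported by gene here.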

Additional observations from a re-analysis of the deposited data

How the results depend on the processing

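Of 44 alternative values for the 10 main results, 39 stayed within 1.5 times the main count or, for a median, equalled the main value. The 39 include a count of genes in place of regions, which is another unit. They also include the regions with 1 peak of each list, to which all 67 identical regions belong, so that this number could not change. The number of regions in all 3 lists was 103 with at least 25 nt of overlap, 100 with a reciprocal overlap of 50%, 107 with peaks within 50 nt joined, 104 with at least 1 nt covered by every list, and 80 without recurrent peaks. Counted as genes, 149 identifiers occurred in every list. Regions on structural RNA fell from 84 to 36 where only the genes that the authors annotated were used, by construction, since these hold no tRNA genes and no 45S units. Where the middle of the shared part had to lie in the RNA gene, regions on structural RNA numbered 63 and those on tRNA genes 32. The median shared part was 99% over the 21 regions away from structural RNA. Regions of different width numbered 20 in place of 35, and regions widest in a single list 17 in place of 28, where a margin of more than 5 nt was asked for. The tRNA regions with sites at both ends in every list numbered 14 in place of 24 with a tolerance of 3 nt and 26 with 10 nt, settings chosen after seeing the data. Intronic regions like rRNA numbered 6 in place of 7 with at least 90% identity, a setting also chosen after seeing the data. The count of tRNA regions with sites at both ends and that of intronic regions like rRNA were themselves added after the data were seen. Leaving out a sample could not be run, since both samples of a medium were joined. No paired analysis was possible because each medium has 1 joined list. Depth limits every count here, because a site missing from a list may lie under its peak threshold.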
